A study of Mus musculus with 14 samples.

Results

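The genes described here flank *2310061I04Rik* (*Rik*) on mouse chromosome 17, in brains of *Rik*-null and wild type (WT) pups. They are the protein-coding genes of the deposited table that start within a window of about 5 Mb on either side of *Rik* and hold at least 140 counts over the 14 libraries, apart from *Mog* and genes whose names start with Rp, Mrp, Nduf, Col, Rsph or Hnrnp, which were left out. Of 56748 genes in the table, 310 protein-coding genes start in that window, 148 of which were under the count minimum and 10 of which were left out by name, so that 152 genes remained: *Rik*, 130 genes at lower coordinates (below *Rik*) and 21 at higher coordinates (above *Rik*). Start and distance here refer to the lower coordinate of each gene in the table, whatever its strand. Just inside the count minimum were *Pram1* with 154 counts and *Olfr1564* with 163, and just outside it were *H2-DMb2* with 135 and *Hsf2bp* with 132. The 21 genes above *Rik* end at a start of 37581111, because 60 of the 120 protein-coding genes of the window on that side had no count in any library and 50 of the 120 were olfactory receptor genes.

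RNA was taken from whole brain of C57BL6/J pups at postnatal day 14, from 8 pups labelled RIK KO (7 labelled male, 1 female) and 6 labelled WT (2 male, 4 female). The *Rik*-null allele is a spontaneous small deletion in intron 1 of *Rik* that arose in a single embryonic stem cell clone during the making of a floxed *Traf7* allele, also on chromosome 17. By the study's methods the floxed *Traf7* mice were themselves made on a C57BL/6 background, the floxed allele was separated from the deletion by crossing, and carriers were then bred to C57BL/6 for several generations. Whether the chromosome around the deletion differs in sequence from that of the WT pups was not given for any library, so a change of a flanking gene through the loss of *Rik* and one through a linked difference in sequence cannot be told apart in these groups.

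This stretch of chromosome 17 carries the mouse major histocompatibility complex (MHC, called H2 in mouse), one of the most gene-dense stretches of the genome. Its class I genes encode the cell surface molecules that present peptides to cytotoxic T cells, its class II genes encode those that present to helper T cells, and between them lies the class III region with complement, heat shock and many unrelated genes. Genes linked to a mutated locus travel with it through breeding, and enhancers or read-through transcription can tie neighboring genes to one another, so flanking genes are commonly read beside the mutated gene.

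The libraries held 15183130 to 28012811 counts in the *Rik*-null group and 18102343 to 30993890 in WT, of which the 152 genes took 0.752 percent. Summed neuron, astrocyte and oligodendrocyte markers were present in every library, and no listed marker was at 0 in its total over all 14 libraries. The 5 markers of other leukocytes summed to only 0.613 to 1.24 CPM in *Rik*-null and 0.492 to 1.82 in WT libraries. Of these markers, 1 could be tested. Endothelial markers summed to 120 to 143 CPM in *Rik*-null brains and 145 to 164 in WT, with 1 of 5 (*Cdh5*) lower by test, while 2 of 4 choroid plexus and 2 of 3 meningeal markers were higher. Pituitary markers summed to 1.42 to 270 CPM (median 3.07) in *Rik*-null and 1.80 to 6.10 in WT libraries, and the 1 of 4 that could be tested, *Pomc*, was not called (edgeR adjusted p = 0.109). The counts of *Xist* and Y-linked genes went against the labelled sex in 2 WT libraries, WT 1 (labelled male) and WT 6 (labelled female). The libraries were also cut into 2 sets by average-linkage clustering on their correlation, with the flanking genes and chromosomes X and Y left out. The number of sets was fixed at 2. The sets cross genotype, with 4 *Rik*-null and 4 WT libraries in set 1 and 4 *Rik*-null and 2 WT libraries in set 2.

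Levels below are library-scaled counts (CPM, TMM scaled). A gene is called where its p in edgeR's quasi-likelihood test, adjusted by Benjamini and Hochberg over the 18170 genes that passed the filter on low counts, was 0.05 or less, and all 152 flanking genes passed it. Fold changes are *Rik*-null over WT on the log2 scale with the standard error (SE), 8 libraries against 6.

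*Rik* itself lies at chr17:36203569-36208323 on the minus strand in the table's coordinates. The stretch below shows where its null allele is marked: 22 bases of intron 1 on the gene's strand, read from GENCODE M21 transcript sequence (GRCm38 chr17:35896228-35896249), with the recognition sites of HindIII, BclI and PvuII in capitals, which the study places inside the deletion.
2310061I04Rik intron 1: AAGCTTcTGATCAgccCAGCTG
In GRCm38 this stretch lies 155 bases from exon 2 of *Rik*, 3.56 kb from the end of *Dhx16* and 13.8 kb from the start site of *Atat1*. The gene model of *Rik* leaves 6 bases to *Dhx16* on one side and 163 bases to *Atat1* on the other, so the 3 genes are packed end to end.

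*Rik* was the gene with the lowest p of the 152. In WT brains it was at 68.9 CPM in the lowest library, 74.0 at the median and 79.4 in the highest, and in *Rik*-null brains at 7.44, 9.07 and 10.6 CPM. The groups lay far apart, with every *Rik*-null library below every WT library, so the *Rik* level of each library matched its genotype label. The difference was -3.02 (SE 0.07, adjusted p = 4.32e-15), an 8.14-fold lower level, and the exact 2-sided permutation test over 3003 arrangements of the libraries gave 0.000666, the smallest it can give. An opposite-strand gene, *Gm16279*, overlaps *Rik*, and the strand setting of the counting was not given, so the remaining reads of the 2 genes cannot be told apart.

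*Atat1*, which encodes the enzyme that acetylates alpha-tubulin in microtubules, is on the minus strand like *Rik*, and its lower coordinate, its 3′ end, lies 4.92 kb above that of *Rik*. Its WT libraries ran from 65.1 CPM through a median of 72.3 to 79.8, and its *Rik*-null libraries from 53.7 through 64.7 to 74.8. Most *Rik*-null libraries were below most WT libraries, but the groups overlapped. The difference of -0.17 (SE 0.06, 95 percent interval -0.31 to -0.04) had an adjusted p of 0.151 in edgeR and an exact permutation p of 0.0253 as a single gene. With the library set as a term it was -0.21 and passed (adjusted p = 0.0097).

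*Dhx16*, an RNA helicase of the spliceosome, starts 12.9 kb below *Rik* on the opposite strand. It was at 34.4, 38.1 and 40.7 CPM in the lowest, median and highest WT library, and at 33.2, 36.6 and 39.5 in the *Rik*-null libraries. The groups overlapped over most of their range. The difference was -0.06 (SE 0.05, 95 percent interval -0.17 to 0.04, adjusted p = 0.504, exact permutation p = 0.166). The interval leaves room for a level up to 0.17 lower on the log2 scale, and the test does not show that the level was the same.

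**Figure D1:**
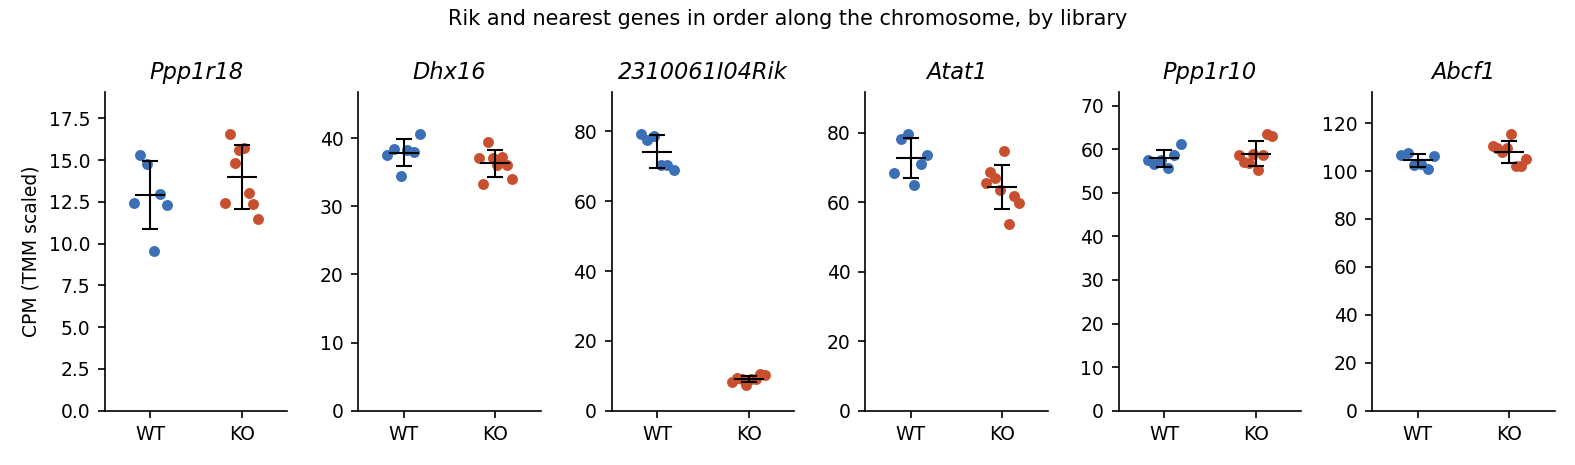
CPM of *Rik*, 2 neighbors below it and 3 above it, in order along the chromosome, with 1 point per library, for 6 WT (blue) and 8 *Rik*-null (KO, red) libraries. Horizontal bars with whiskers are the mean and SD, and each axis starts at 0. *Rik* falls from about 74.0 to 9.07 CPM at the median with no overlap, while the groups overlap in each of the other 5 genes.

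The next genes out on both sides did not pass the test, with differences on either side of 0. Below *Dhx16* follow *Ppp1r18*, an actin-binding partner of protein phosphatase 1 (0.12, SE 0.11), and *Nrm*, an inner nuclear membrane protein (0.09, SE 0.19). *Mdc1*, a mediator of the DNA damage response, was at 20.1 ± 1.2 CPM (SD, n = 6) in WT and 22.9 ± 3.1 (SD, n = 8) in *Rik*-null brains, a difference of 0.19 (SE 0.08, edgeR adjusted p = 0.220). The *Rik*-null libraries of *Mdc1* reached both below and above all WT libraries. *Tubb5*, a beta-tubulin of growing neurons, ran from 554 to 1056 CPM in WT and from 641 to 1185 in *Rik*-null brains (0.26, SE 0.17), and *Flot1*, a membrane raft protein, differed by 0.03 (SE 0.07). The libraries of both groups spread widely in *Tubb5*, and the groups overlapped over most of their range.

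Above *Atat1* lie *Ppp1r10*, a nuclear regulator of protein phosphatase 1 (0.03, SE 0.04), *Abcf1*, a factor of translation (0.05, SE 0.04), *Prr3* (0.02, SE 0.07) and *Gnl1*, a GTP-binding protein (-0.02, SE 0.05). These 4 were counted well, and their intervals are narrow, the widest running from -0.14 to 0.17 (*Prr3*). *H2-T24*, a class I gene of the T region, was at 3.14 ± 0.87 CPM (SD, n = 6) in WT and 4.01 ± 1.6 (SD, n = 8) in *Rik*-null brains, and its interval was far wider, from -0.17 to 0.82. Its reads may be shared with near-identical class I genes, as may those of the other H2 class I genes named here.

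Over the whole window, 10 of the 152 genes were called, and each was lower in the mutants: *Rik* and 9 of the 130 genes below it. Among all 18170 genes tested, 602 were called (3.31 percent), 399 of them lower (2.20 percent) and 203 higher (1.12 percent). The 9 are 6.92 percent of the genes below *Rik*, against 2.10 percent called lower among the 14444 genes tested elsewhere that meet the rule other than position. None of the 21 genes above *Rik* was called by edgeR or by DESeq2, though 3 (14.3 percent) had an unadjusted p under 0.05 (*Atat1*, *Trim39* and *H2-M5*, all lower). None of the 152 was called higher by either tool, with 4 (2.63 percent) at an unadjusted p under 0.05 (*Angptl4*, *Slc39a7*, *Clic1* and *Mdc1*). Of all genes tested, 3379 (18.6 percent) had an unadjusted p under 0.05, 10.3 percent lower and 8.34 percent higher, the background for every such count of the genotype test.

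The called genes were not the ones nearest to *Rik*. The closest, *Sapcd1*, starts 959 kb below *Rik* and the farthest, *Akap8*, 3681 kb below. Within 1 Mb of *Rik* on both sides, 1 of 51 genes other than *Rik* was called (1.96 percent). On the side below alone, 1 of 38 was called within 1 Mb (2.63 percent) and 8 of 92 beyond 1 Mb (8.70 percent). The share within 1 Mb was near the 2.20 percent called lower among all genes tested. In bins of 2 Mb from the start of *Rik*, 0 of 8 genes were called at 4 to 6 Mb below (none had an unadjusted p under 0.05). The bins then held 4 of 44 (9.09 percent) at 2 to 4 Mb below, 5 of 78 (6.41 percent) in the 2 Mb below and 0 of 21 in the 2 Mb above. The 21 genes above are too few to tell 0 from the share over all genes.

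Median differences were small and alike along the window. They were -0.06, -0.02, -0.04 and -0.03 in those 4 bins, in order, against 0.00 for all genes tested and 0.01 for the genes elsewhere that meet the rule other than position. Of the 151 genes other than *Rik*, 87 (57.6 percent) had their lower mean in the mutant group, against 48.0 percent of the genes elsewhere. That number moved with the fit. It was 79 (median -0.01) with sex read from counts as a term, and 91 (median -0.03) with labelled sex as a term. After the adjustment for GC content described further on it was 82 (median -0.02). The size of the difference showed little relation to distance from *Rik*, with a Spearman rho of -0.08 (-0.04 for the signed difference). Both are over the 151 genes, which share their libraries and differ in depth.

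**Figure D2:**
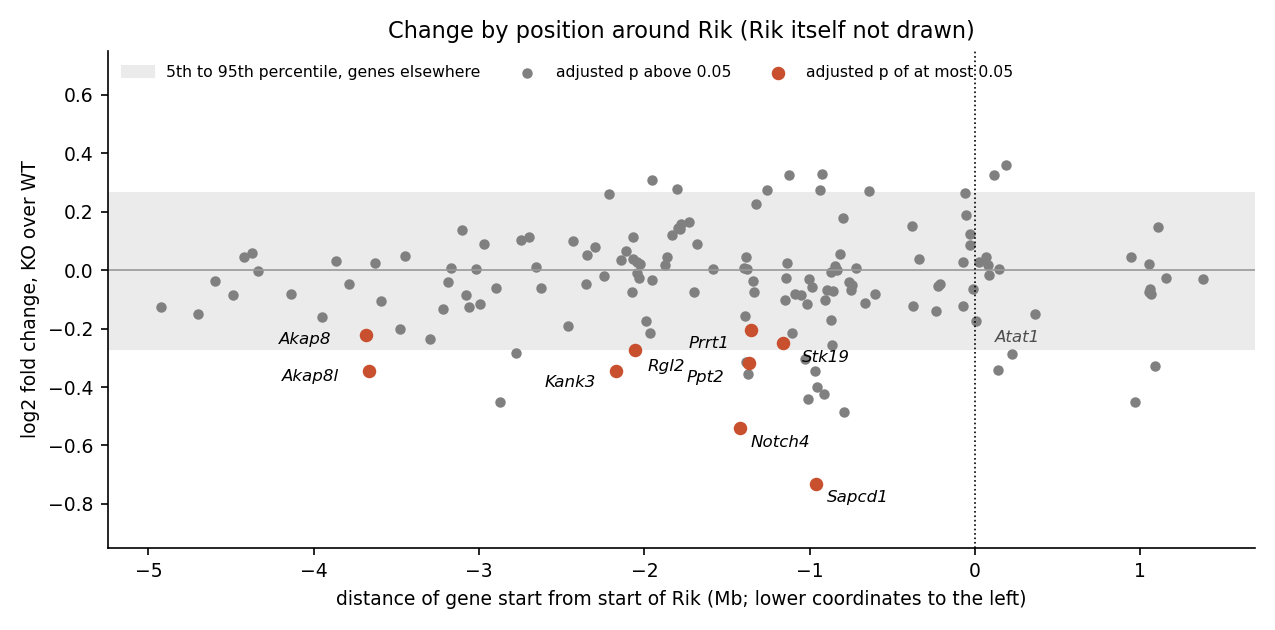
Log2 fold change of the 151 flanking genes (KO over WT) against the distance of each gene's start from the start of *Rik* in Mb, with *Rik* itself (-3.02) not drawn. Red points have an adjusted p of at most 0.05, gray points do not, and the gray band holds the 5th to 95th percentile of the genes elsewhere (-0.27 to 0.26). All 9 red points lie between 959 and 3681 kb below *Rik*, and none lies above it.

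The same count was widened to 20 Mb on each side to see whether the pattern stopped at the window. Of 440 genes other than *Rik* there that meet the rule other than position, 28 were called lower (6.36 percent) and 1 higher, with a median of -0.04. These include the 151 genes of the window and its 9 calls, and the 289 genes beyond the window held 19 called lower (6.57 percent) and 1 higher. Of these, 8 of 55 genes were called lower at 10 to 15 Mb above *Rik*, 6 of 73 at 5 to 10 Mb below and 5 of 113 at 10 to 15 Mb below, with 0 of 29 at 5 to 10 Mb above, 0 of 11 at 15 to 20 Mb above and 0 of 8 at 15 to 20 Mb below. *Traf7*, the gene first targeted in this line, is among the genes below the window and differed by -0.11 (SE 0.05, adjusted p = 0.286).

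Among the 9 lower genes, *Kank3* and *Rgl2* had the lowest p. *Kank3*, an ankyrin repeat protein that restrains actin assembly, lies at chr17:34029493-34041892 in the table. Its WT libraries were at 28.4, 30.5 and 34.5 CPM (lowest, median, highest) and its *Rik*-null libraries at 21.5, 24.5 and 25.6. Every *Rik*-null library was below every WT library, a gap that 223 of all 18170 genes tested show in this direction (1.23 percent) and that *Rik*, *Kank3*, *Rgl2*, *Ppt2* and *Stk19* show among the 152. The level was 21.2 percent lower (-0.34, SE 0.05, adjusted p = 0.00189).

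*Rgl2* encodes an exchange factor that switches on the small GTPase Ral downstream of Ras, and starts 119 kb above *Kank3*. Its libraries were at 84.6, 89.5 and 92.7 CPM in WT and at 69.2, 72.3 and 78.4 in *Rik*-null brains. The groups lay apart, with a gap of several CPM between the highest *Rik*-null and the lowest WT library. The level was 17.3 percent lower (-0.27, SE 0.04, adjusted p = 0.00189). *Kank3* and *Rgl2* were the only flanking genes besides *Rik* that stayed called in each of the 14 fits that leave out 1 library and in both fits with sex as a term.

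The promoters of these 2 genes are shown because their change held under the most fits, and to let their composition be seen beside the GC content described further on. Each runs from 250 bases before to 50 after the start in RefSeq (GRCm38.p6, chr17:33810273-33810572 for *Kank3* and chr17:33929644-33929943 for *Rgl2*, both plus strand), with the GC box GGGCGG, the CCAAT box CCAAT, the TATA box TATAAA and the cAMP response element TGACGTCA, searched on both strands, in capitals.
Kank3 promoter: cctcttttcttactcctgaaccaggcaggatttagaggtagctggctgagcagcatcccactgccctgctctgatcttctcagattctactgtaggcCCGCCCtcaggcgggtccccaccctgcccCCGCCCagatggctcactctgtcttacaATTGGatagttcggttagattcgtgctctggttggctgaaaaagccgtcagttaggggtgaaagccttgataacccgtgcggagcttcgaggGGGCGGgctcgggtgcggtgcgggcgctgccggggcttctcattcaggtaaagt
Rgl2 promoter: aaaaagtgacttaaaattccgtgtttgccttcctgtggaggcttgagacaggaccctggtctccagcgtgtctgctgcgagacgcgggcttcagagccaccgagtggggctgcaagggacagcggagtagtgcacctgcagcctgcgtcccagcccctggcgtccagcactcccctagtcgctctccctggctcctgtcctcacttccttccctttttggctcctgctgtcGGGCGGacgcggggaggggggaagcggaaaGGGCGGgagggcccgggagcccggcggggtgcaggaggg
The *Kank3* window is 58.3 percent G and C and holds 3 GC boxes and 1 CCAAT box, and the *Rgl2* window is 65.7 percent G and C and holds 2 GC boxes. Neither holds a TATA box or a cAMP response element. Of 27025 mouse promoters of the same length, 1 per gene, 35.9 percent hold a GC box, 37.9 percent a CCAAT box, 14.2 percent a TATA box and 1.88 percent a cAMP response element. Of the 152 genes, 120 have an entry. Of these, 55.0 percent hold a GC box, 53.3 percent a CCAAT box, 10 percent a TATA box and 2.5 percent a cAMP response element. The 27025 promoters were not limited to protein-coding genes or by counts, as the 152 genes were, so the sets are unlike. *Stk19*, *Sapcd1* and *Rik* have no entry.

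*Notch4* encodes a Notch receptor of blood vessel endothelium and fell by 0.54 on the log2 scale (SE 0.12, adjusted p = 0.0246). It was at 11.7, 14.2 and 19.1 CPM in WT and at 8.73, 10.09 and 13.4 in *Rik*-null brains. The groups overlapped, with the highest *Rik*-null library above the lowest WT libraries. The summed endothelial markers given above moved the same way without overlap between groups, by -0.38 to -0.14 for the 5 single genes, and the part of endothelial cells in the change of *Notch4* and of *Kank3* was not tested. In bulk RNA, fewer cells of a type and less RNA per cell cannot be told apart. *Notch3*, the Notch receptor of vascular mural cells, also lies in the window, at 32.4 CPM in WT and 33.1 in *Rik*-null brains on average (0.03, SE 0.09).

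*Akap8*, which encodes a nuclear anchoring protein of protein kinase A that acts on chromatin, and *Akap8l* are adjacent genes. *Akap8* was at 110, 115 and 122 CPM in WT and at 90.8, 94.9 and 115 in *Rik*-null brains (-0.22, SE 0.05, adjusted p = 0.0293). *Akap8l* was at 135, 167 and 177 CPM in WT and at 114, 119 and 145 in *Rik*-null brains (-0.34, SE 0.08, adjusted p = 0.0246). The highest *Rik*-null library of *Akap8* and the 3 highest of *Akap8l* reached into the WT range while the rest sat below it.

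*Ppt2*, a lysosomal thioesterase, *Prrt1*, a synaptic partner of AMPA-type glutamate receptors, and *Stk19* lie within 207 kb of one another by their starts. *Ppt2* was at 16.99, 18.1 and 18.8 CPM in WT and at 12.4, 14.2 and 16.5 in *Rik*-null brains, without overlap (-0.32, SE 0.07, adjusted p = 0.0220). *Prrt1* was at 222, 243 and 264 CPM in WT and at 197, 213 and 237 in *Rik*-null brains, with overlap (-0.20, SE 0.05, adjusted p = 0.0272). *Stk19* was at 31.6, 33.8 and 37.0 CPM in WT and at 25.3, 28.3 and 31.2 in *Rik*-null brains, and its groups just failed to meet (-0.25, SE 0.06, adjusted p = 0.0246).

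*Sapcd1* had the largest fold difference of the 9 and the lowest level. It was at 0.765, 0.863 and 1.12 CPM in WT and at 0.379, 0.504 and 0.844 in *Rik*-null brains, with overlap. These levels rest on 140 counts over 6 WT libraries and 90 over 8 *Rik*-null libraries. The difference was -0.73 (SE 0.19, adjusted p = 0.0411), and it was no longer called in 11 of the 14 fits that leave out 1 library. *Msh5*, a meiotic mismatch repair family gene that starts beside it, was also low, at 1.39 ± 0.23 CPM (SD, n = 6) in WT and 1.06 ± 0.38 (SD, n = 8) in *Rik*-null brains, and did not pass (-0.40, SE 0.21).

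**Figure D3:**
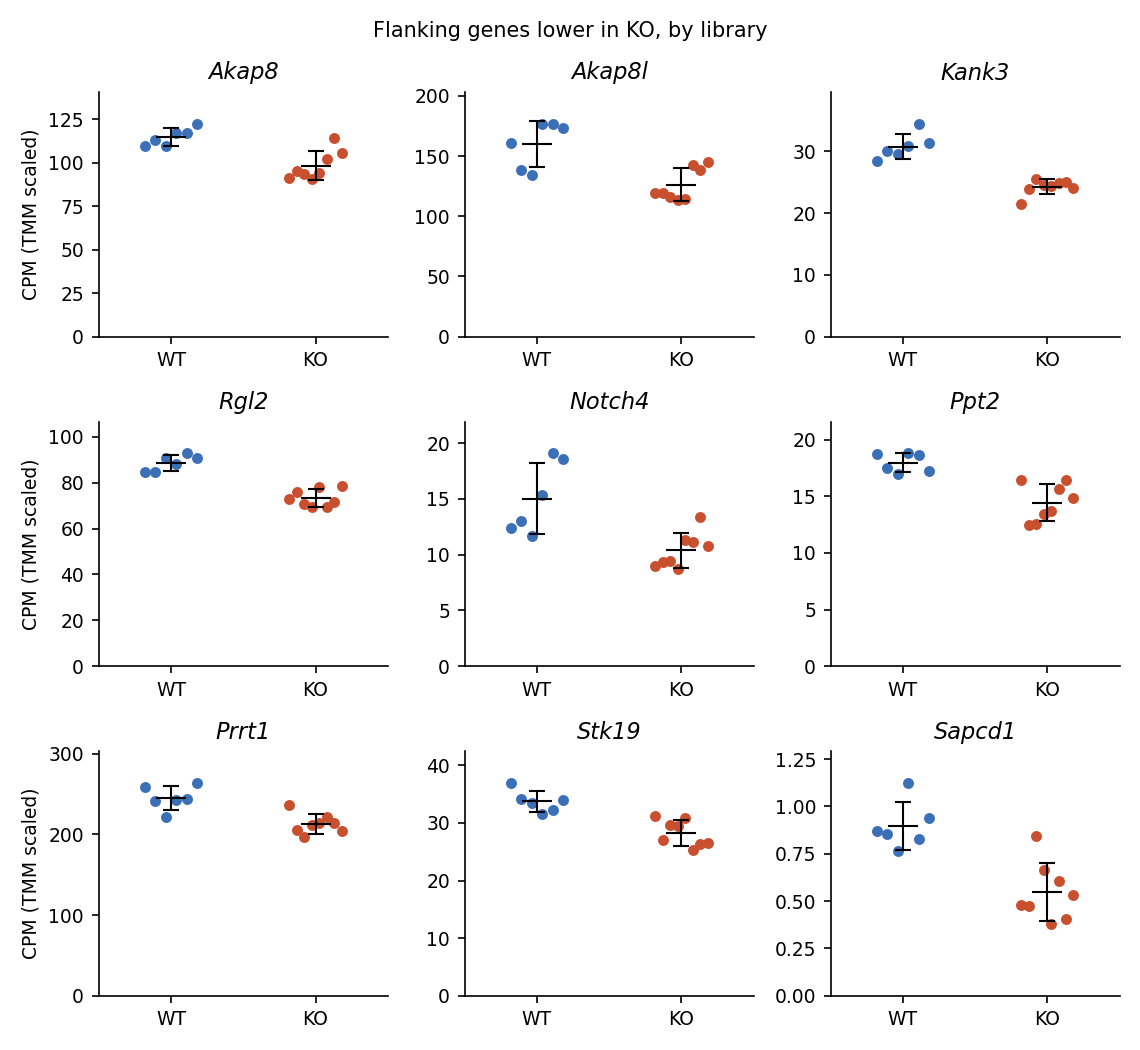
CPM of the 9 flanking genes called lower, in order along the chromosome, with 1 point per library for 6 WT (blue) and 8 *Rik*-null (KO, red) libraries, the mean and SD as bars, and each axis from 0. The changes are between 13.2 and 39.7 percent of the fitted WT level, and the groups do not overlap in *Kank3*, *Rgl2*, *Ppt2* and *Stk19*.

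*Kank3*, *Notch4*, *Ppt2*, *Sapcd1* and *Rik* each overlap another annotated gene, as do 77 of the 152, and without a stated strand setting their reads may be shared. Just outside the threshold were *Ring1*, a catalytic subunit of Polycomb repressive complex 1 (-0.22, SE 0.06, adjusted p = 0.0633), *Vars2*, the mitochondrial valyl-tRNA synthetase (-0.14, SE 0.04, adjusted p = 0.0694), and *Gpank1* (-0.26, SE 0.08, adjusted p = 0.0926). *Ring1* and *Vars2* passed under DESeq2 and with the library set as a term. Both were lower at the median in *Rik*-null brains with overlapping groups.

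By role, the largest group was 21 genes of chromatin and transcription, of which *Akap8* and *Akap8l* were called lower (9.52 percent) and none higher (median -0.05). Over all genes tested, 2.20 percent were called lower. In all 7 had an unadjusted p under 0.05, among them *Pbx2*, a homeodomain cofactor, at -0.16 (SE 0.06), and *Morc2b* had the largest fold difference of the group at 1.69 ± 0.36 CPM (SD, n = 6) in WT and 1.25 ± 0.38 (SD, n = 8) in *Rik*-null brains (-0.45, SE 0.19). *Kank3* was placed among the signalling genes rather than the cytoskeleton genes, though it acts on actin assembly. With it, the 15 genes of Notch, Wnt, kinase and other signalling held 4 of the 9 called genes (*Kank3*, *Rgl2*, *Notch4* and *Stk19*). These are 26.7 percent of the group, with a median of -0.05. The groups were drawn up with earlier results known, so whether the calls gather in a role was not tested. The most abundant of them per length was *Gabbr1*, a subunit of the GABA-B receptor, at 94.3 ± 2.3 FPKM (SD, n = 6) in WT and 92.9 ± 3.0 (SD, n = 8) in *Rik*-null brains, which did not pass (-0.03, SE 0.04).

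None of the 17 genes of MHC class I chains, antigen processing and loading was called, with 1 at an unadjusted p under 0.05, and their median was 0.01. *H2-D1*, a classical class I chain, was at 43.1, 48.4 and 53.9 CPM in WT and at 45.4, 48.1 and 53.9 in *Rik*-null brains, ranges that nearly coincide (0.01, SE 0.06). *H2-K1*, another classical class I chain, differed by -0.17 (SE 0.09, adjusted p = 0.340). *H2-Bl* (0.36, SE 0.22), *H2-T23* (-0.34, SE 0.25) and *H2-M5* (-0.33, SE 0.15) had large fold differences at low counts, in both directions.

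None of the 5 MHC class II genes was called and none had an unadjusted p under 0.05. Their median was 0.09, and *H2-Ab1*, a class II beta chain of antigen-presenting cells, was at 1.34 ± 0.24 CPM (SD, n = 6) in WT and 1.53 ± 0.34 (SD, n = 8) in *Rik*-null brains. The 7 complement and cytokine genes of the class III region had no call and none with an unadjusted p under 0.05. Complement *C2* differed by 0.32 (SE 0.18), *Ltb*, which encodes lymphotoxin beta, by -0.48 (SE 0.28) on 102 counts in WT and 79 in *Rik*-null brains, and *C4b*, a complement gene with a near-identical copy, by 0.27 (SE 0.22). With the library set as a term *C4b* was called higher (0.40, SE 0.11, adjusted p = 0.0353), at 0.42 in set 1 and 0.36 in set 2. DESeq2 called none of the 29 genes of these 3 groups.

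The 9 heat shock, chaperone and protein quality control genes had no call in either tool, and 2 had an unadjusted p under 0.05, *Hspa1l* (-0.44, SE 0.20, on 222 counts in WT and 174 in *Rik*-null brains) and *Trim39*, a ubiquitin ligase (-0.15, SE 0.07). *Hspa1a* and *Hspa1b*, inducible Hsp70 genes that are nearly identical, differed by -0.12 (SE 0.14) and -0.30 (SE 0.22). The 13 zinc finger genes had no call in either tool and none with an unadjusted p under 0.05, with a median of 0.01. The smallest p among them was that of *Zfp870* (0.14, SE 0.07). *Zfp57*, which guards imprinted loci, ran from 17.8 to 36.5 CPM in WT and from 18.8 to 36.8 in *Rik*-null brains (0.15, SE 0.17).

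The 16 genes of RNA processing, translation and ribosome assembly had no call in edgeR and 1 in DESeq2 (*Vars2*). Of these 16, 2 had an unadjusted p under 0.05 (*Vars2* and *Rrp1b*), 13 had a lower mean, and the median was -0.04. *Rrp1b*, a nucleolar factor, was at 18.8 ± 1.3 CPM (SD, n = 6) in WT and 16.9 ± 0.93 (SD, n = 8) in *Rik*-null brains (-0.16, SE 0.06, adjusted p = 0.124). *Prrc2a*, a broadly expressed RNA-binding protein and one of the most abundant flanking genes at 56.2 FPKM, differed by 0.00 (SE 0.04).

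Of the 10 cytoskeleton and membrane traffic genes none was called by edgeR or DESeq2, 2 had an unadjusted p under 0.05 (*Atat1* and *Clic1*), and 8 had a higher mean. *Clic1*, a chloride channel family protein, was at 11.0, 11.99 and 17.2 CPM in WT and at 11.8, 15.5 and 18.9 in *Rik*-null brains (0.28, SE 0.12, adjusted p = 0.245). *Tubb5* was the most abundant of the 152 per length, at 227 ± 58 FPKM (SD, n = 6) in WT and 273 ± 72 (SD, n = 8) in *Rik*-null brains. Of the 16 metabolism genes *Ppt2* was called (6.25 percent), and the abundant *Atp6v1g2*, a subunit of the neuronal vacuolar proton pump at 129 FPKM, differed by -0.07 (SE 0.06). *Ddah2* had the largest fold difference of that group (0.33, SE 0.21), with 22.2 to 52.7 CPM in WT and 27.0 to 58.3 in *Rik*-null brains.

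**Figure D4:**
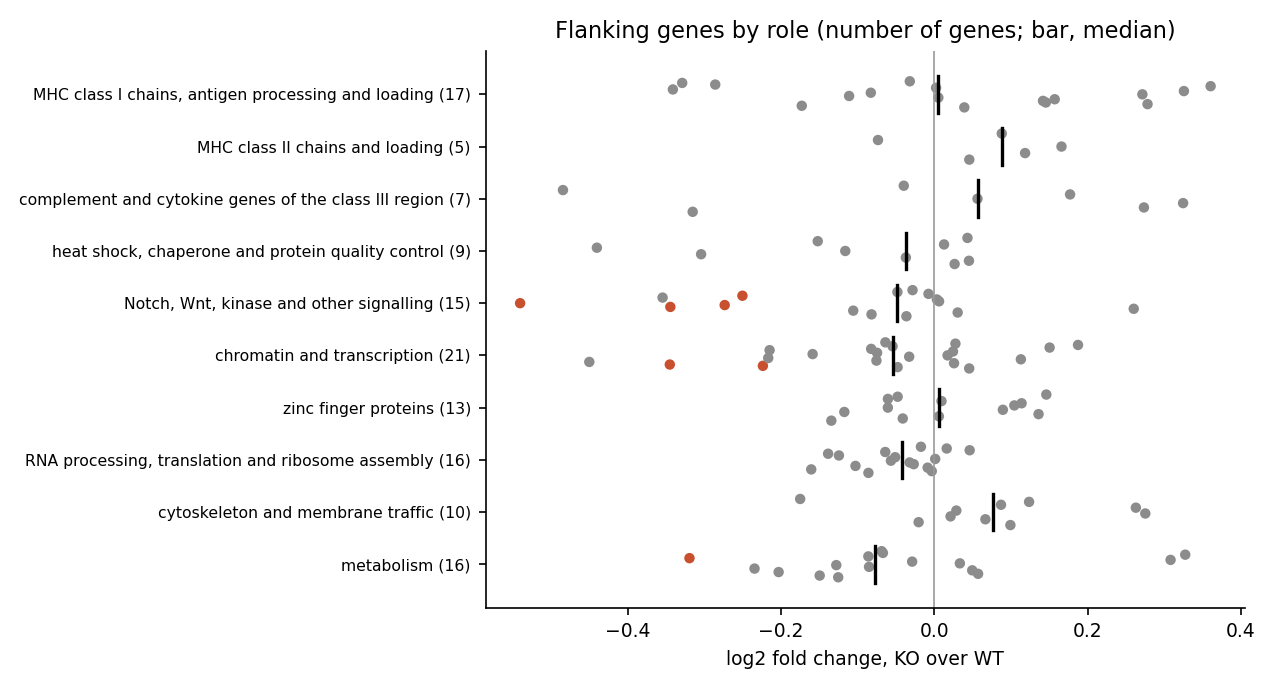
Log2 fold change (KO over WT) of the 129 flanking genes that fall in a role group, 1 point per gene, with the number of genes in parentheses, red for an adjusted p of at most 0.05 and a black bar for the median. The red points lie in 3 groups: 4 in signalling, 2 in chromatin and transcription and 1 in metabolism. The medians run from -0.08 in metabolism to 0.09 in MHC class II.

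The flanking genes are GC-rich, and GC content went weakly with the difference between groups across the genome (Spearman rho -0.10 over 17895 genes). Gene length went with it to a like degree (0.10 over 18170 genes). Median length was 3381 bases for the 151 genes other than *Rik* and 4517 for the genes elsewhere. The median GC content of the longest transcript was 54.9 percent for the 151 genes other than *Rik*, 58.6 percent for the 9 called genes and 49.9 percent for the genes elsewhere. Elsewhere, the share called lower rose from 0.804 percent in the lowest of 4 equal classes of GC content to 3.99 percent in the highest. In that highest class fell 77 of the 151 flanking genes and 7 of the 9 called. After an adjustment of each library for GC content 5 of the 9 stayed called (*Akap8*, *Kank3*, *Ppt2*, *Rgl2* and *Stk19*), beside 2.02 percent of all genes called lower. The other 4 were *Akap8l* at -0.30 (adjusted p = 0.0765), *Notch4* at -0.48 (0.0547), *Prrt1* at -0.15 (0.120) and *Sapcd1* at -0.69 (0.0502).

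Sex and library set moved with the groups in part. With labelled sex, or sex read from counts, as a term, only *Kank3* (-0.31 and -0.34) and *Rgl2* (-0.22 and -0.24) stayed called besides *Rik*, while the share of all genes called lower fell to 0.605 and 0.682 percent. The other 7 kept their direction under both terms, at *Akap8* -0.22 and -0.26, *Akap8l* -0.33 and -0.36, *Notch4* -0.38 and -0.55, *Ppt2* -0.34 and -0.31, *Prrt1* -0.21 and -0.22, *Stk19* -0.26 and -0.23, and *Sapcd1* -0.79 and -0.81, with adjusted p from 0.0786 to 0.214. With the library set as a term each of the 9 stayed called, beside 4.56 percent of all genes called lower, and each was lower in both sets fitted separately within 1 model. Set 1 alone called none of them, with *Kank3* at -0.39 and *Rgl2* at -0.29, and called 46 of 18205 genes in all (0.253 percent). Set 2 alone called 5 lower and *Slc39a7* and *Tubb5* higher. The difference between the sets was called for none of the 152 genes by edgeR, and no other tool was run for it. In that test 1 of the 152 genes (*Slc39a7*) had an unadjusted p under 0.05, against 439 of all 18170 genes tested.

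**Figure D5:**
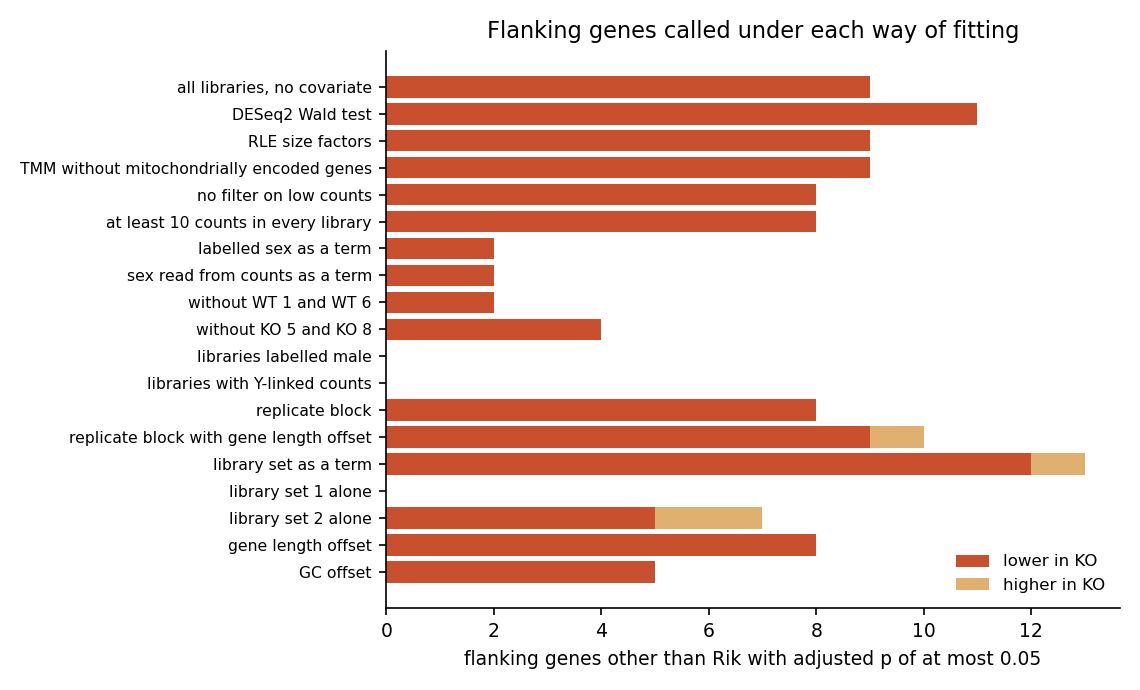
Number of flanking genes other than *Rik* with an adjusted p of at most 0.05 under each way of fitting, with genes lower in KO in red and genes higher in tan. The count is 9 with all libraries and no covariate, 2 with either sex term, 0 in the libraries labelled male, in those with Y-linked counts and in set 1 alone, and 13 with the library set as a term.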

How the data were processed

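Whole-brain RNA of 14 pups was sequenced, and raw counts and FPKM per gene were deposited in 1 table. By the study's methods, Novogene made the libraries, sequenced them and ran the standard bioinformatics. The aligner, counter and strand setting were not stated in any source used. The labels name mm10, yet 0 of the 152 genes start where the GRCm38 annotation (GENCODE M21) has them, so positions are given in the table's own coordinates and RefSeq or GENCODE sequence in its own build. The deposited authors' comparison columns (signal as mean normalized counts, log2 fold change, p-value) were not used as results. Gene length was used only beside GC content and as an offset.

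Counts were tested with edgeR 4.0.16 in R 4.3.3 (filterByExpr by genotype, TMM, quasi-likelihood F test, 8 *Rik*-null against 6 WT libraries, Benjamini-Hochberg over 18170 genes), with log2 CPM at a prior count of 2 for the exact permutation tests. DESeq2 1.42.0, other scalings, filters, covariates, library sets and left-out libraries were alternatives, and an adjustment for GC content was added after seeing the data. The procedure was run on simulated counts with a single dispersion for all genes. They held no effect of sex, library set or litter, so that run cannot speak to those. The 14 libraries hold 15183130 to 30993890 counts. p-values measure the spread between these pups. The study describes its WT and *Rik*-null pups as littermates. Which pups shared a litter was not given, so litter was not a term of any fit.

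The flanking genes, role groups and markers were chosen with earlier results of these data known. Genes named are *Rik*, *Atat1* and *Dhx16*, the 6 nearest on each side, all called genes, the 3 nearest to the threshold outside it, genes with groups that do not overlap, the 5 highest by FPKM, the 4 of largest change on each side whose mean reaches 1 CPM, and in each role group the smallest p and the largest change. *Trim39*, *Pbx2*, *Angptl4*, *Slc39a7*, *Notch3*, *H2-D1*, *H2-K1*, *C4b*, *Hspa1a* and *Hspa1b* were named after their values were seen.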

Additional observations from a re-analysis of the deposited data

Results flagged for a closer look

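Among the named genes, 84 groups were examined for a library far from the others and 5 were found, about as many as chance gives at 1 in 20 groups. *Kank3* in the library KO 1 was at 21.5 CPM, below the other *Rik*-null libraries at 23.9 to 25.6, and *H2-M5* in KO 6 was at 1.68 CPM, below the others at 2.78 to 3.34. *Hspa1l* in KO 7 was at 1.78 CPM, above the others at 0.716 to 1.20. *Gnl1* in WT 1 was at 152 CPM, above the other WT libraries at 141 to 145, and *H2-Bl* in WT 3 was at 2.08 CPM, above the others at 0.853 to 1.20.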

How the results depend on the processing

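The count of flanking genes called, 10 with *Rik* and 9 below it, moved to 3 and 2 with labelled sex as a term, with sex read from counts as a term and without WT 1 and WT 6, to 5 and 4 without KO 5 and KO 8, to 1 and 0 in the libraries labelled male, in those with Y-linked counts and in library set 1 alone, and to 6 and 5 with the GC offset. It was 30 of 441 within 20 Mb and 1 of 152 with a minimum 2-fold change. Leaving out 1 library gave 4 to 11 called, 3 to 10 of them below *Rik* and 0 above. The count was 4 without KO 2, WT 4, WT 5 or WT 6, 5 without KO 4 or WT 1, and 6 without KO 3. DESeq2 called 12 and the other scalings and filters 9 or 10. One gene above *Rik* was called with the library set as a term (*Atat1*, -0.21), and 1 with the replicate block or the replicate block with gene length offset (*Trim39*, -0.23 and -0.22). Same-numbered libraries of the 2 groups had correlations of -0.34 to 0.32. The numbers were therefore not taken as pairs, and they do not tell which pups shared a litter. With the replicate block the count was 9 (*Stk19* and *Sapcd1* no longer called), and *Rik*, *Atat1* and *Dhx16* kept their side of the threshold. The cause of these moves was not tested. *Rik* ran from -3.17 to -2.92 over all alternatives, and -3.06 to -2.98 when 1 library was left out. *Atat1* ran from -0.21 to -0.14 and *Dhx16* from -0.09 to -0.04 when 1 library was left out. No called value turned its direction. With the library set as a term each of the 9 stayed called, and with either sex term *Kank3* and *Rgl2* did.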
